A study of Mus musculus with 6 samples.

Results

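The 73 genes described here encode proteins of the cytosolic ribosome, 31 of the small subunit and 42 of the large subunit. They were chosen by symbol from the 25771 genes of a single-cell RNA sequencing study of mouse testis: every symbol of the form Rps or Rpl with its number was taken, together with Rpsa and the stalk genes Rplp0, Rplp1 and Rplp2, and 2 further matches were left out by the rule. No measured value entered the choice. The testes came from adult C57BL6 mice of the genotypes NONO deltaER and NONO, with 3 libraries each. NONO is a nuclear protein that binds RNA and DNA, and the sources used here do not say what deltaER alters in it. Cells are grouped as KI and WT in the deposited table. KI was read as NONO deltaER (libraries TD, TE and TF) and WT as NONO (TA, TB and TC), and were this reading wrong, every direction between genotypes would turn. Separate animals behind the 3 libraries of a genotype are not stated in the labels. The p-values therefore cover the spread among these libraries alone, and part of it may be technical.

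A ribosome holds 1 copy of most of these proteins, and cells usually make their mRNAs in matched amounts. Many of these mRNAs begin with a tract of pyrimidines, the terminal oligopyrimidine (TOP) tract, through which growth signals set their translation. In the testis, dividing spermatogonia grow and make ribosomes, whereas elongating spermatids stop transcription while their chromatin is packed with protamines, store mRNAs for later use and in the end discard most of their cytoplasm.

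The matrix held 46495 cells and 546809586 UMI (unique molecular identifiers, each counting 1 transcript caught at its 3′ end), of which the 73 genes took 6789426, or 1.24%. Library depth ran from 81042216 to 110018960 UMI, and 650 of 45836 barcode sequences occurred in more than 1 library. Cells were taken in the 17 deposited fine classes, 12 of the germ line and 5 somatic, and UMI were summed per library and class. Levels are given in CPM, a gene's part of the summed UMI of its class and library times a fixed factor. They are not scaled by transcript length and are shares of the UMI seen. The Sertoli, Leydig, macrophage and fibroblast markers were highest in the classes so named, except that the fibroblast markers were highest in the class named Unknown. Peritubular myoid markers were highest in the class named Myoid, and so were the endothelial (456.5 CPM) and lymphocyte (237 CPM) markers. Markers of differentiating spermatogonia had their highest sum in Round ST(Step 1-2), at 1166 CPM, against 1143 CPM in Differentiated SG. Dmrtb1 alone made up 1164 CPM of the former. Stra8 went the other way, at 960 CPM in Differentiated SG and 0.10 CPM in Round ST(Step 1-2), and so did Kit, Sohlh1 and Sohlh2. The markers of elongating spermatids had their highest sum in the class of steps 7-8, at 116900 CPM, against 79120 CPM in the class named Elongated ST. Prm2 alone made up 111400 CPM of the former. Prm1 and Tnp2 were highest in steps 6-7 and Odf1 in the class named Elongated ST. Markers of round spermatids were highest in steps 4-5, at 1524 CPM, against 146 CPM in steps 6-7 and 239 CPM in steps 7-8. Markers of early spermatocytes were highest in the class named Preleptotene SC. Those of late spermatocytes had nearly level sums in 3 classes: 5092 CPM in Round ST(Step 1-2), 5013 CPM from leptotene to early pachytene and 4921 CPM in late pachytene and early diplotene cells. The deposited names are therefore used as labels only. In Sertoli cells, the 4 measured elongating spermatid markers still summed to between 22810 and 35320 CPM per library, the most of any somatic class. The sum averaged 10870 CPM in the class named Unknown, 8349 CPM in Leydig cells, 5637 CPM in macrophages and 6528 CPM in undifferentiated spermatogonia. RNA of other cells was thus counted with these cells, to an extent that differed among classes. The part that such RNA has in the low values below was not tested.

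The start of the transcript is shown for 10 genes on which the results turn, because the pyrimidine tract there is the sequence feature this family is known for. Each line gives the 25 bases before and the 25 bases from the RefSeq annotated start (GRCm38.p6, transcript strand), with the longest unbroken run of at least 8 C or T in capitals. The first 6 genes were lower in steps 7-8 than in steps 6-7, and the last 4 were higher.
Rpl13 (chr8:123102325-123102374, plus strand): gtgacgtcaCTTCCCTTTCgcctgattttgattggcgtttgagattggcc
Rps9 (chr7:3704016-3704065, plus strand): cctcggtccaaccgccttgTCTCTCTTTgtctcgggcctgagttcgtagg
Rpl7a (chr2:26910782-26910831, plus strand): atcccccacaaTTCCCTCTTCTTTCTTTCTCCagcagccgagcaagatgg
Rps6 (chr4:86857343-86857392, minus strand): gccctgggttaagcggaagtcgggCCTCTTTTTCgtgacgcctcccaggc
Rps7 (chr12:28635929-28635978, minus strand): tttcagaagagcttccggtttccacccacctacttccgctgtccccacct
Rplp0 (chr5:115559442-115559491, plus strand): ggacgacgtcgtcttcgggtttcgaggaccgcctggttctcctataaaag
Rpl28 (chr7:4792940-4792989, plus strand): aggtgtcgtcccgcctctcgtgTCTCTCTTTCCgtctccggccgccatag
Rps12 (chr10:23787185-23787234, minus strand): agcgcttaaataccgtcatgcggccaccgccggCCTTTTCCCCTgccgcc
Rpl26 (chr11:68901541-68901590, plus strand): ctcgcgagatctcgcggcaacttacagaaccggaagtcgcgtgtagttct
Rpl41 (chr10:128549144-128549193, minus strand): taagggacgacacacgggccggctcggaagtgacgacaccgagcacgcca

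A start was held for 53 of the 73 genes, and 27 of them (50.9%) had such a run in the window, against 22.3% of the 27025 genes in the same table. On the opposite strand the share was 7.55% of the 53 genes and 24.4% of all genes. Both courses described below occurred with and without a run: Rpl13 and Rps7, with and without one, were both far lower in steps 7-8, and Rpl28 and Rpl41, also with and without one, were both higher there. Of the 26 genes with a run that averaged at least 10 CPM over the classes, the median log2 ratio of steps 7-8 over steps 6-7 was -1.36, and of the 21 without a run it was -0.26. These are descriptions of the letters in the window. Annotated starts can differ from the starts used in germ cells.

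The share of UMI in the 73 genes was highest among germ cells in undifferentiated spermatogonia and lowest in elongated spermatids. In undifferentiated spermatogonia it was 2.70%, 2.88% and 2.55% in NONO deltaER (TD, TE and TF in this order), against 3.00%, 2.82% and 2.47% in NONO (TA, TB and TC). It was 1.39% ± 0.06 in NONO deltaER and 1.46% ± 0.09 in NONO differentiated spermatogonia (SD, n = 3 each). The share then stood at 1.80% to 1.98% in the class from leptotene to early pachytene and at 1.31% to 1.46% in late pachytene and early diplotene cells, over the 6 libraries.

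In the classes named round spermatids the share had a late peak. The share was 0.92% to 1.09% in steps 5-6 and 1.23% to 1.42% in steps 6-7, higher in 6 of 6 libraries with a ratio of 1.32 ± 0.03 (SD over the libraries). It was 0.79% to 1.00% in steps 7-8, lower than in steps 6-7 in 6 of 6 libraries, with a log2 ratio of -0.59 ± 0.05. Without the 5 genes with the most UMI, Rps7, Rplp0, Rpl13, Rps24 and Rpl21, which took 37.1% of the family's UMI, that log2 ratio was -0.23. In elongated spermatids the share was 0.157%, 0.187% and 0.175% in NONO deltaER and 0.177%, 0.208% and 0.190% in NONO. That was 0.0668 ± 0.0077 times the share in undifferentiated spermatogonia, lower in 6 of 6 libraries. Per cell, the family's UMI averaged 121 ± 24.7 in undifferentiated spermatogonia and 496 ± 120 in late pachytene and early diplotene cells (SD, n = 6). It averaged 160 ± 19.2 in steps 5-6, 116 ± 15.3 in steps 6-7, 42.7 ± 6.89 in steps 7-8 and 4.94 ± 0.68 in elongated spermatids. The peak in steps 6-7 was thus one of share and not of UMI per cell. All UMI per cell averaged 16000 in steps 5-6 and 8810 in steps 6-7. Classes came from a clustering that held these genes, so differences between classes are given as descriptions with no test.

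**Figure D1:**
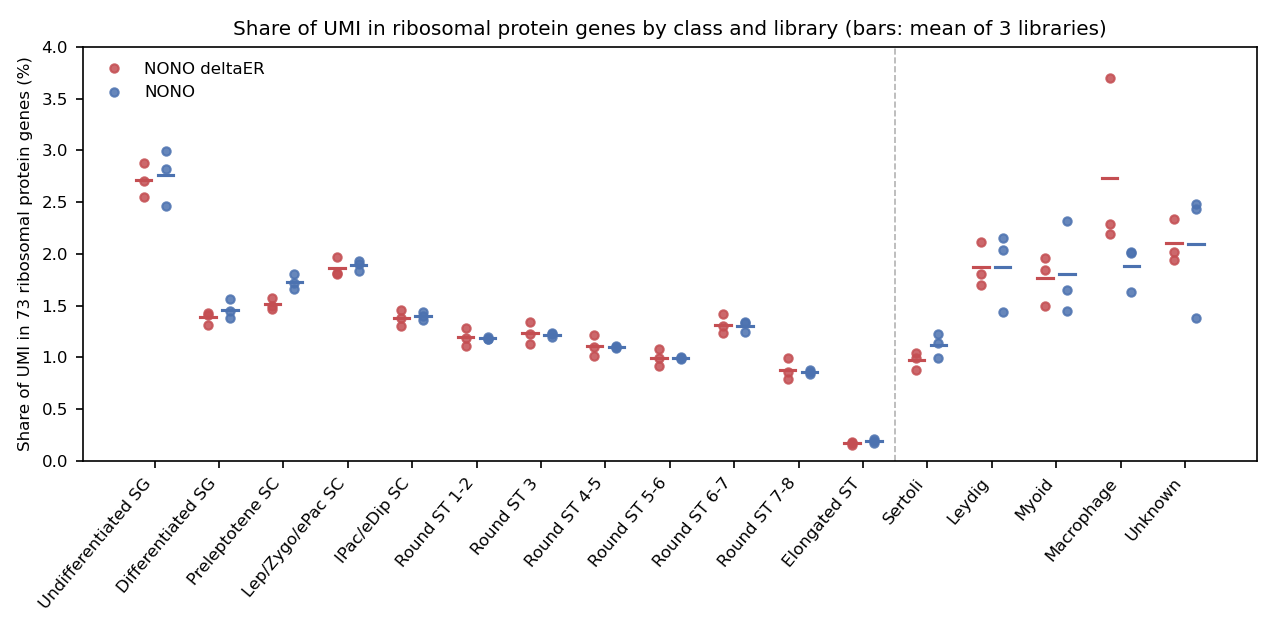
Share of UMI in the 73 ribosomal protein genes (%, vertical axis) in each of the 17 classes, germ line left and somatic classes right of the dashed line. Points are libraries, NONO deltaER in red and NONO in blue, and bars are means of 3. The share was highest among germ cells in undifferentiated spermatogonia, peaked again in steps 6-7 and was lowest in elongated spermatids, and the genotypes did not overlap in preleptotene spermatocytes and macrophages.

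Per gene, 64 of the 73 averaged at least 10 CPM over the 17 classes. Of these, 63 were lower in elongated spermatids than in undifferentiated spermatogonia in 6 of 6 libraries, as were 83.0% of the 10328 genes past the same floor. The median log2 ratio was -5.75 for the ribosomal protein genes and -3.62 for all genes. Already in step 3, 60 of the 64 were lower than in undifferentiated spermatogonia, against 52.2% of all genes, and 0 were higher, against 31.2%. From steps 5-6 to steps 6-7 the family went the other way from most genes: 41 of 64 were higher in 6 of 6 libraries, against 11.5% of all genes, and 13 were lower, against 66.9%. Between steps 6-7 and steps 7-8 the family divided, with 36 of 64 lower in 6 of 6 libraries (47.7% of all genes) and 17 of 64 higher (9.66% of all genes).

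The steepest difference at steps 7-8 was that of Rpl13, a large subunit protein. It had 7.35, 7.02 and 3.98 CPM in steps 7-8 in NONO deltaER and 7.10, 5.25 and 7.31 CPM in NONO. In steps 6-7 it had 748, 691.5 and 714 CPM in NONO deltaER and 631, 674 and 689 CPM in NONO. The log2 ratio of steps 7-8 over steps 6-7 was -6.56, computed on CPM + 1. The classes were far apart in every library, and in steps 7-8 the genotypes overlapped. In steps 6-7 the NONO deltaER libraries lay above the NONO libraries, a difference that missed the threshold (log2 fold change 0.11 ± 0.07, edgeR adjusted p = 1.0).

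Rps7, a small subunit protein and the member with the most UMI, had the next largest difference. It had 41.8, 25.3 and 21.5 CPM in steps 7-8 in NONO deltaER and 20.9, 19.1 and 33.1 CPM in NONO, and 1346 to 1559 CPM in steps 6-7 over the 6 libraries. Rplp0, which anchors the acidic stalk where translation factors bind, had 82.5 to 135.5 CPM in steps 7-8, against 1452 to 1667 CPM in steps 6-7, with no overlap. Rps23, which lies at the decoding centre, averaged 2.88 CPM against 166 CPM, Rps3a1 1.58 CPM against 85.7 CPM and Rpl18 14.9 CPM against 257 CPM. Rps14, which lines the mRNA channel and is known in human for its loss in a form of myelodysplasia, averaged 1.32 CPM against 64.8 CPM. In elongated spermatids these genes averaged between 0.65 CPM, for Rps14, and 21.0 CPM, for Rplp0.

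A smaller set was low before this point. Rps3, at the mRNA entry of the small subunit, averaged 589 CPM in undifferentiated spermatogonia, 91.3 CPM in step 3 and 13.3 CPM in steps 5-6. Rps27a, made as a fusion with ubiquitin, averaged 142 CPM, 37.9 CPM and 1.55 CPM in the same classes, and Rpl14, a large subunit protein, 726 CPM, 21.2 CPM and 7.09 CPM. In steps 5-6 the 6 libraries held 1.01 to 2.09 CPM of Rps27a and 5.76 to 8.38 CPM of Rpl14, with the genotypes overlapping for both. Rpl10a and Rpl4, also of the large subunit, followed the same order, with 6.72 and 333 CPM in step 3 and 2.00 and 43.6 CPM in steps 5-6. Rpl5, which carries the 5S ribosomal RNA together with Rpl11, was at 87.5 CPM in steps 5-6, 24.6 CPM in steps 6-7 and 1.59 CPM in steps 7-8. Its partner Rpl11 kept 527 CPM in steps 6-7 and 176 CPM in steps 7-8 and was at 9.87 CPM in elongated spermatids, so the members of this pair differed in when they became low.

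The third course was a higher CPM, a share of UMI, in steps 7-8. All UMI per cell averaged 8810 in steps 6-7 and 4888 in steps 7-8. A higher CPM in steps 7-8 therefore need not mean more UMI of a gene per cell. Rpl21, a large subunit protein, had 1390, 1338 and 1249 CPM in steps 7-8 in NONO deltaER and 1241, 1348 and 1306 CPM in NONO, against 674 to 820.5 CPM in steps 6-7 in the 6 libraries. Rpl29, a small basic protein at the surface of the large subunit, had 1064, 1124 and 871 CPM in NONO deltaER and 923, 947 and 1089 CPM in NONO, against 499 to 639 CPM in steps 6-7. Every library was higher in steps 7-8 for both genes, and the genotypes overlapped. Rplp1, of the acidic stalk, averaged 52.6 CPM in steps 7-8 and 24.0 CPM in steps 6-7, with a log2 ratio of 1.10, the largest of the 64. Its stalk partners went the other way: Rplp0 as above, and Rplp2 averaged 0.65 CPM in steps 7-8 against 5.43 CPM in steps 6-7. Rps20 was at 295 CPM against 225.5 CPM, Rpl26 at 789 CPM against 570 CPM and Rps12 at 222.5 CPM against 149 CPM.

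In elongated spermatids, 46 of the 64 genes were lower than in steps 7-8 in 6 of 6 libraries, against 21.0% of all genes, and 1 was higher, against 8.63%. Among those that were higher in steps 7-8, Rpl26 averaged 51.2 CPM, Rpl21 291 CPM and Rpl29 417 CPM in elongated spermatids. Rps24, a small subunit protein mutated in some human Diamond-Blackfan anaemia, was at 835 CPM in steps 7-8 and 29.5 CPM in elongated spermatids. Rpl26 and Rps24 thus became low 1 class later than Rpl13 and Rps7.

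Rpl41, whose coding sequence of 75 bases is the shortest of the family, was the exception. It had 222, 163 and 155 CPM in elongated spermatids in NONO deltaER and 197, 187 and 166 CPM in NONO. In undifferentiated spermatogonia it had 55.7, 42.9 and 56.4 CPM in NONO deltaER and 61.5, 51.8 and 49.9 CPM in NONO. It was higher in elongated spermatids in 6 of 6 libraries, with a log2 ratio of 1.76, and was the 1 gene of the 64 to be so, against 7.07% of all genes. Of the 60-base words in the last 300 bases of its transcript, 57.3% occur in other annotated genes, so reads of its copies could be counted with it or lost.

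**Figure D2:**
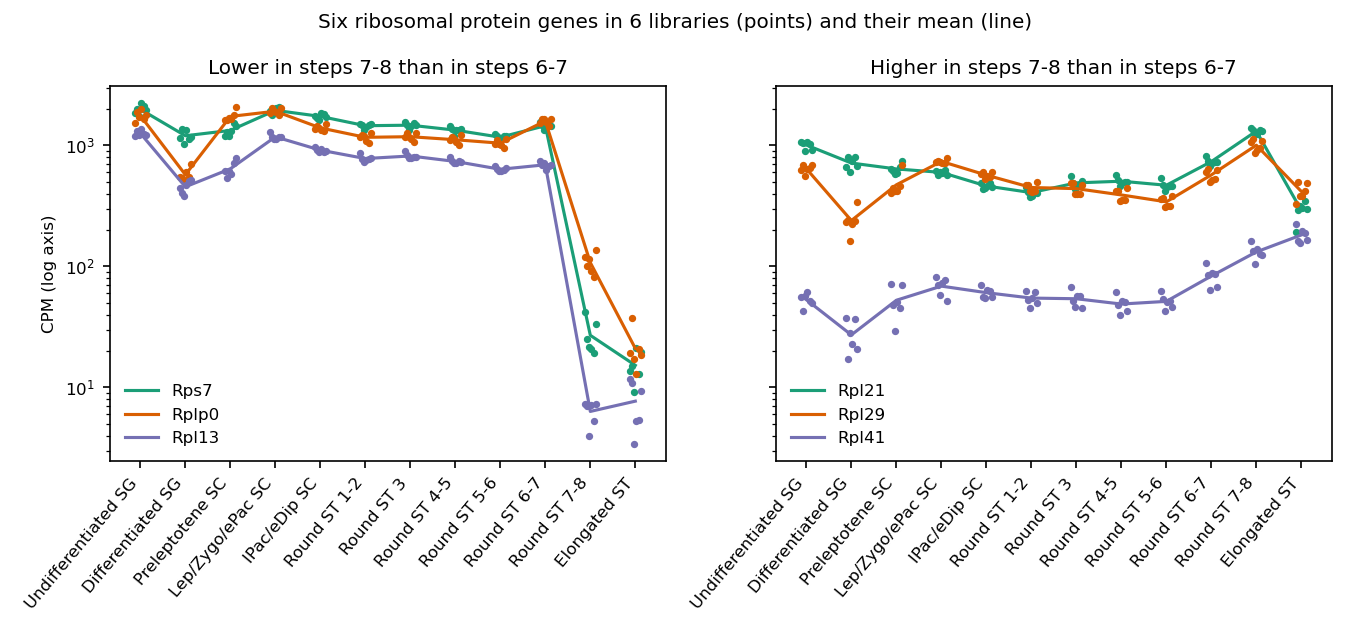
CPM (log axis) of 6 ribosomal protein genes over the 12 germ cell classes, with points for the 6 libraries and lines for their means. Rps7, Rplp0 and Rpl13 on the left had means of 27.0, 107 and 6.33 CPM in steps 7-8, far under their means in steps 6-7, and Rpl21, Rpl29 and Rpl41 on the right had 1312, 1003 and 132 CPM, above theirs.

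The coding lengths of the members were set beside how much was left in elongated spermatids. Across the 64 genes the log2 ratio of elongated spermatids over undifferentiated spermatogonia had a Pearson correlation of -0.54 and a Spearman correlation of -0.56 with coding length, a description across genes that share libraries. The median log2 ratio was -4.74 in the 21 shortest genes (75 to 429 coding bases), -5.98 in the 21 of middle length and -6.65 in the 22 longest (588 to 1257 coding bases). With the same ratio, transcript length had a Pearson correlation of -0.08 and a Spearman correlation of -0.24. Total UMI had a Spearman correlation of -0.29. Coding length with the ratio of steps 7-8 over steps 6-7 had a Pearson correlation of -0.13. The share of 60-base words found in other genes had a correlation of -0.04 with the ratio of elongated spermatids over undifferentiated spermatogonia. Of the 73 genes, 36 shared over 50% of these words with other genes and 26 shared under 10%, and the sources used here do not say how the counting treated shared reads.

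**Figure D3:**
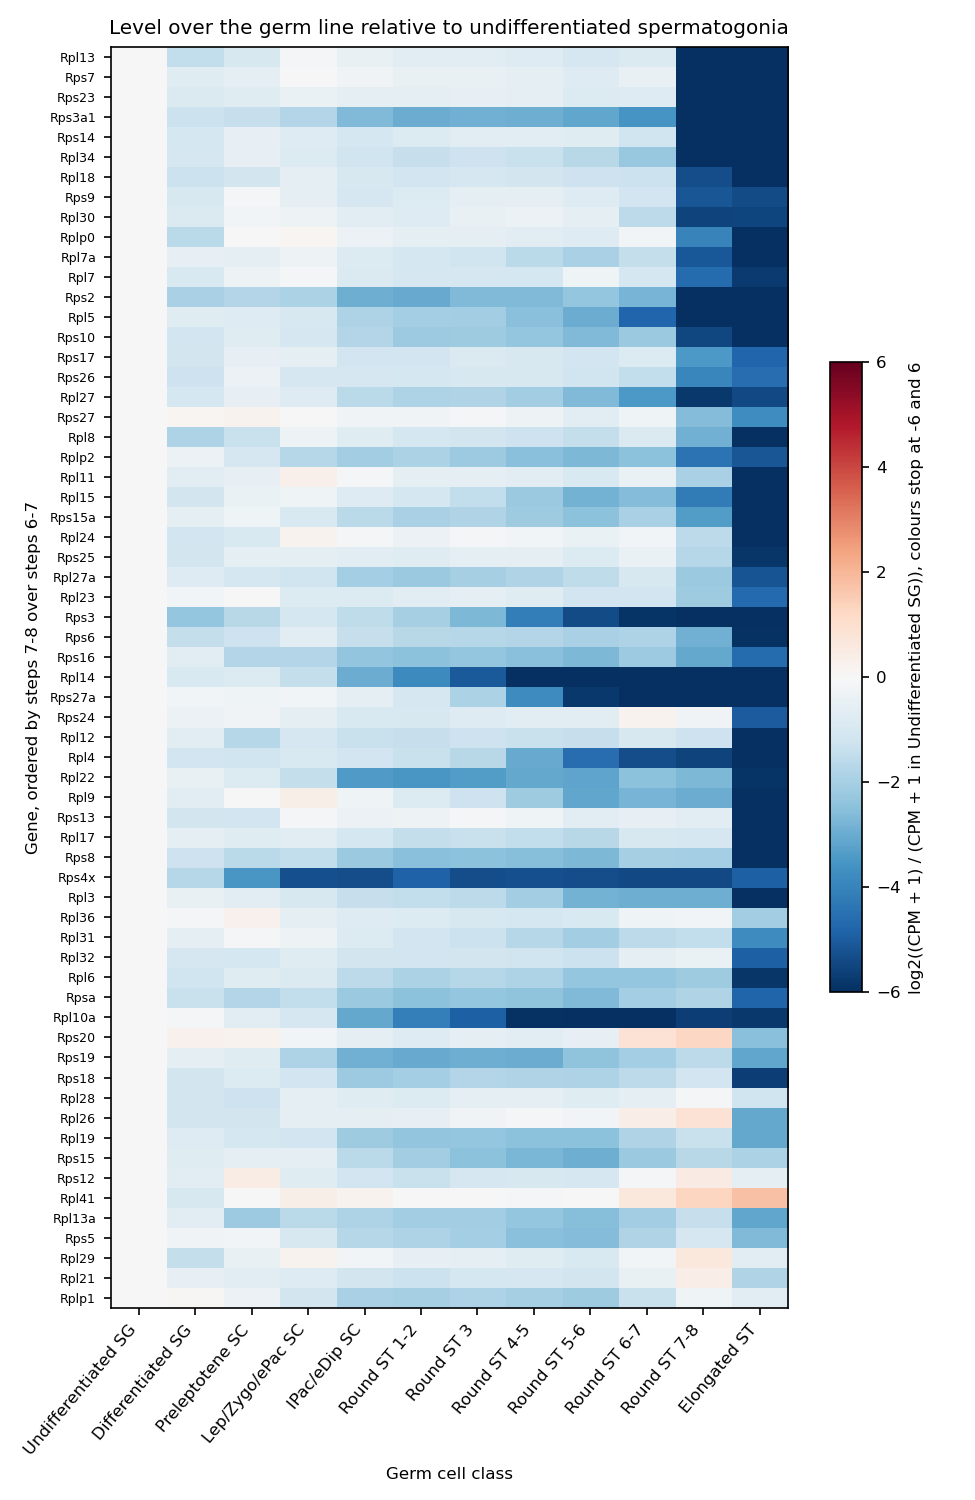
Level of 63 of the 64 genes that averaged at least 10 CPM over the classes, in the 12 germ cell classes, as the log2 ratio of CPM + 1 to that in undifferentiated spermatogonia, ordered by steps 7-8 over steps 6-7. Blue is lower and red higher, and colours stop at -6 and 6. Genes at the top turned dark blue at steps 7-8, a few in the middle such as Rps3, Rpl14 and Rps27a did so earlier, and Rpl41 near the foot was red in elongated spermatids.

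Over all 17 classes the members mostly followed one profile. The correlation of a gene's log2 profile with the median of the other members had a median of 0.88, with 28 members at 0.9 or more and 11 under 0.5. Closest were Rps10 at 0.98, Rpl23 at 0.98 and Rpl7a at 0.97. Among the least like the rest were Rpl41 at -0.84, Rpl29 at -0.13, Rps12 at 0.07, Rplp1 at 0.16 and Rpl28 at 0.18. Outside the family and its lists, 2562 genes past a set minimum mean CPM in undifferentiated spermatogonia were screened. Most members were highest in that same class, so the choice itself favoured likeness, and the screen was not open to all genes. The 5 screened genes most like the median profile were Chmp4b at 0.95, Park7 at 0.94, Eif4a1 at 0.93, Tnpo1 at 0.93 and Sp3 at 0.93. Eif4a1 is the helicase of translation initiation, and Sp3 is a transcription factor. The highest class was undifferentiated spermatogonia for 40 members and macrophages for 18. The matching counts of likeness and of highest class over all genes are not given here. Since 83.0% of all genes past the floor were also lower in elongated spermatids than in undifferentiated spermatogonia, these counts do not show a trait particular to the family. Among members named for their roles, Rpsa, a small subunit protein also known as a laminin receptor precursor, averaged 524 CPM in undifferentiated spermatogonia, 155 CPM in preleptotene spermatocytes and 17.6 CPM in elongated spermatids. Rps2 averaged 561, 163 and 2.19 CPM in these classes. Rps19, mutated in human Diamond-Blackfan anaemia, averaged 77.3, 45.8 and 7.91 CPM, and Rpl22, which also binds other RNAs, 114, 64.3 and 0.93 CPM.

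Rps4x and Rpl36a are the X-linked members. The X chromosome is silenced in pachytene spermatocytes, and X-linked genes stay largely repressed in spermatids. Rps4x had 52.1, 61.5 and 44.8 CPM in undifferentiated spermatogonia in NONO deltaER and 43.4, 38.9 and 38.5 CPM in NONO. The genotypes did not overlap there, and the difference missed the threshold (log2 fold change 0.31 ± 0.20, edgeR adjusted p = 0.462). In preleptotene spermatocytes it had 2.73, 0 and 5.31 CPM in NONO deltaER and 6.63, 0 and 4.42 CPM in NONO. It averaged 0.18 CPM in step 3 and 0.57 CPM in elongated spermatids. In somatic classes it was high, with 475, 1152 and 565 CPM in NONO deltaER macrophages and 459, 418 and 870 CPM in NONO macrophages. Rpl36a averaged 9.04 CPM in undifferentiated spermatogonia and was at 0 in 6 of 6 libraries in the class from leptotene to early pachytene. It had 123 UMI in all, and its last 300 bases are fully shared with other genes, so its counts are uncertain.

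**Figure D4:**
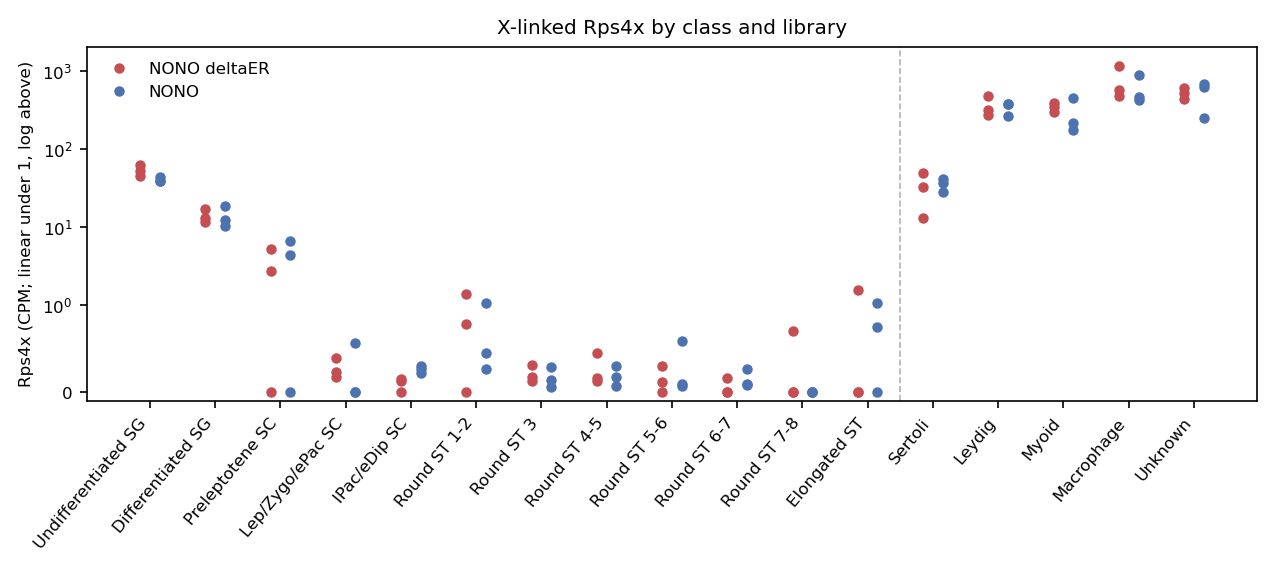
CPM of the X-linked gene Rps4x in the 17 classes (vertical axis linear under 1 and log above), with NONO deltaER libraries in red and NONO libraries in blue. It was between 38.5 and 61.5 CPM in undifferentiated spermatogonia, near 0 from leptotene on, and at 418 CPM or more in macrophages.

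Of the 8 listed paralogues, 7 were measured. Rpl10l and Rpl39l, retrogene copies known to serve in male germ cells while the X-linked genes are silent, were low early: Rpl10l averaged 59.0 CPM in NONO deltaER and 82.9 CPM in NONO preleptotene spermatocytes. In step 3 Rpl10l had 167, 166 and 169 CPM in NONO deltaER and 148, 152 and 174 CPM in NONO, and Rpl39l had 59.0 to 101 CPM over the 6 libraries. In undifferentiated spermatogonia Rpl10l had 24.6 to 50.5 CPM and Rpl39l at most 23.3 CPM, below every step 3 library.

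Between the genotypes, no ribosomal protein gene passed an adjusted p of 0.05 in any of the 17 classes (edgeR's quasi-likelihood test, adjusted over all genes of the class), nor with DESeq2. Of all genes, 10 were called higher (0.172%) and 9 lower (0.155%) in preleptotene spermatocytes, 1 higher (0.00904%) and 2 lower (0.0181%) in undifferentiated spermatogonia, and 0 in each of the other 15 classes. In undifferentiated and differentiated spermatogonia most tested ribosomal protein genes had a log2 fold change below 0, against 48.4% and 50.5% of all genes. In preleptotene spermatocytes the family also stood on that side. Its share of UMI was 1.58%, 1.47% and 1.49% in NONO deltaER and 1.66%, 1.72% and 1.80% in NONO, a difference of -0.21 percentage points with no overlap. Of the 56 members tested there, 49 had a log2 fold change below 0, against 50.2% of all 5818 genes tested. Their median was -0.20, against -0.002 for all genes. At an unadjusted p under 0.05 there were 14 members, against 11.7% of all genes, and 9 members were lower in every NONO deltaER library than in any NONO library, against 6.41% of all genes.

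Rps6, the small subunit protein phosphorylated by the S6 kinases, had the lowest p. It had 76.5, 35.2 and 66.3 CPM in NONO deltaER and 90.5, 90.6 and 124 CPM in NONO preleptotene spermatocytes. The libraries did not overlap, and the log2 fold change was -0.74 ± 0.25 (SE), with an unadjusted p of 0.00472 and an edgeR adjusted p of 0.205. Rpl6, of the large subunit, had 601, 642 and 722 CPM in NONO deltaER and 744, 835 and 844 CPM in NONO, with a log2 fold change of -0.33 ± 0.11 (edgeR adjusted p = 0.211). Rpl13a, which in other cells also silences inflammatory mRNAs, had 205, 185 and 204 CPM in NONO deltaER and 258, 259 and 247.5 CPM in NONO (log2 fold change -0.40 ± 0.15, edgeR adjusted p = 0.257). Both were lower without overlap and missed the threshold.

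The remaining members named by the rule in preleptotene spermatocytes were lower without overlap too, and missed the threshold as well. The log2 fold change was -0.47 for Rpl24 and -0.47 for Rpl19, -0.25 for Rps7, -0.32 for Rpl18 and -0.26 for Rpl11, with edgeR adjusted p-values between 0.222 and 0.374. Rps7 averaged 1226 ± 53.9 CPM in NONO deltaER and 1432 ± 99.5 CPM in NONO, and Rpl11 450 ± 35.2 CPM against 525.5 ± 14.1 CPM (SD, n = 3 each). Of the translation factors whose mRNAs carry a TOP tract, 16 of 19 were below 0 in the same class (50.2% of all genes) with a median of -0.14, and 0 passed the test. Among them the elongation factor subunit Eef1b2 had 62.9, 76.7 and 55.7 CPM in NONO deltaER and 122, 107 and 84.0 CPM in NONO (log2 fold change -0.77 ± 0.23, edgeR adjusted p = 0.158). The elongation factor Eef2 had 486.5, 562.5 and 592 CPM in NONO deltaER and 744, 612 and 698 CPM in NONO (-0.36 ± 0.12, edgeR adjusted p = 0.182). Of 24 ribosome biogenesis genes 16 were below 0 (median -0.15) and of 41 mitochondrial ribosome genes 26 (median -0.09), with 0 passing in either list, beside 50.2% below 0 and a median of -0.002 for all genes. Of 5 tested genes from a list of TOP mRNA regulators and of the transcription factors Myc, Mycn and Max, 4 were above 0 (49.8% of all genes). Among them Rps6kb1, Max and Mtor lay near 0 (log2 fold changes 0.11, 0.05 and 0.03), and Larp1 was below 0 (-0.30). Rptor, the mTORC1 subunit, had 227, 176 and 170 CPM in NONO deltaER and 90.5, 139 and 177 CPM in NONO, which overlapped (log2 fold change 0.55 ± 0.19, edgeR adjusted p = 0.219).

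The preleptotene difference in share was present within both sets of libraries that the mitochondrial percent divides, at -0.20 percentage points among TF against TA and TB, and -0.28 among TD and TE against TC. That division is a measured one and not a labelled batch. The class names cover a range of cells, and the 7 late spermatocyte markers summed to 948, 914 and 931 CPM in NONO deltaER and 1270, 1181 and 1295 CPM in NONO preleptotene spermatocytes, lower without overlap. The 4 measured elongating spermatid markers overlapped there, with 1316 to 3845 CPM in NONO deltaER and 1727 to 5183 CPM in NONO. Median UMI per cell overlapped too. The part of the marker shift in the ribosomal protein difference was not tested. Whether the preleptotene response differed from that of other classes was tested by limma across all genes, for undifferentiated spermatogonia, differentiated spermatogonia and the class from leptotene to early pachytene. No gene was called (0.00% in each). The members' lowest adjusted p-values in limma were 0.760, 0.994 and 0.543, and the counts of members at an unadjusted p under 0.05 were 2 of 56, 3 of 50 and 1 of 56, against 361 of 5774, 173 of 4165 and 484 of 5691 of all genes. The difference of response was below 0 for 43 of 56, 42 of 50 and 50 of 56 members, against 48.4%, 50.4% and 48.7% of all genes. The members' medians were -0.13, -0.14 and -0.20, and the 3 comparisons share the preleptotene libraries.

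**Figure D5:**
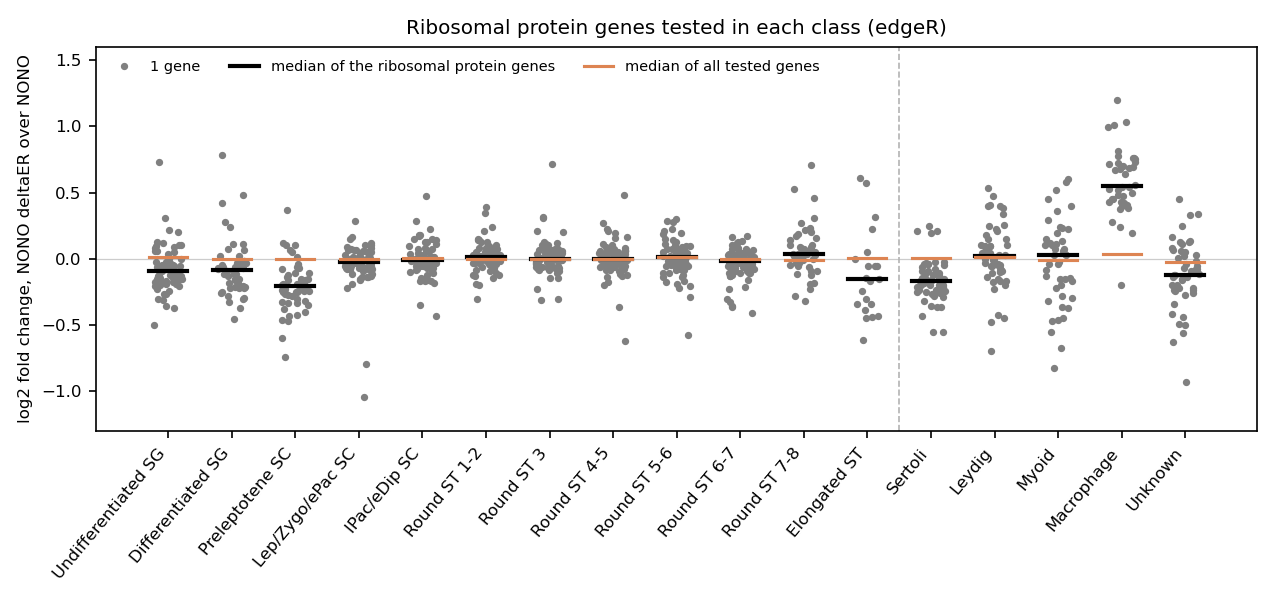
Log2 fold change of NONO deltaER over NONO (edgeR) for each ribosomal protein gene tested in each of the 17 classes, with the median of these genes in black and that of all tested genes in orange. The black bar was below the orange one in preleptotene spermatocytes (-0.20 against -0.002), Sertoli cells (-0.17 against 0.01) and elongated spermatids (-0.15 against 0.01). It was also below, by less, in undifferentiated and differentiated spermatogonia and in the class named Unknown. It was above the orange one in macrophages (0.55 against 0.03) and close to it in round spermatids.

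In undifferentiated spermatogonia 53 of 69 tested members were below 0 (48.4% of all genes), with a median of -0.09. The difference in their share of UMI turned sign between the library sets, at -0.36 and 0.33 percentage points. In the round spermatid classes up to steps 6-7 the medians lay within 0.02 of 0. In steps 7-8, where 46 members were tested, the median was 0.04, and 17 were below 0 (51.3% of all genes). In elongated spermatids 21 members passed the filter, and 15 of them were below 0 (48.6% of all genes), with a median of -0.15. Rpl13a had the lowest p there, with 89.1, 104 and 112 CPM in NONO deltaER and 122, 160 and 127 CPM in NONO (log2 fold change -0.39 ± 0.14, edgeR adjusted p = 0.793), lower without overlap.

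In Sertoli cells 53 of 57 tested members were below 0, against 49.0% of all genes, with a median of -0.17. Their share of UMI was 1.00%, 1.05% and 0.88% in NONO deltaER and 1.00%, 1.14% and 1.22% in NONO, which overlapped. Without library TF the median was -0.07 with 35 of 58 below 0, and without TC it was -0.07 with 40 of 58. Rpl5 had the lowest p, with 117, 109 and 126 CPM in NONO deltaER and 187, 155.5 and 178 CPM in NONO (log2 fold change -0.55 ± 0.21, edgeR adjusted p = 0.960).

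Macrophages went the other way. The share was 2.29%, 3.71% and 2.19% in NONO deltaER and 2.02%, 1.64% and 2.00% in NONO, without overlap, and TE stood apart at the top. Of 40 tested members 39 were above 0, against 53.5% of all 1270 genes tested, with a median of 0.55. No member passed the threshold there. Libraries held 23 to 84 macrophages. Without TE the median was 0.33, and on cells with at least 1000 UMI the shares overlapped, at 1.83%, 2.32% and 1.74% in NONO deltaER and 1.91%, 1.55% and 1.44% in NONO.

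In the other classes too, the gene with the lowest p missed the threshold. In undifferentiated spermatogonia this was Rpl34, with a log2 fold change of -0.36 (edgeR adjusted p = 0.253), and in differentiated spermatogonia Rpl19, with -0.46 (edgeR adjusted p = 0.639). In the class named Myoid it was Rps9, with -0.82 (edgeR adjusted p = 0.676). In the remaining classes, with edgeR adjusted p-values of at least 0.996, these genes included Rps21, Rps16, Rpl10a, Rps15 and Rps2 in the germ line, Rpl41 in Leydig cells and Rps14 in the class named Unknown. Rpl41 had 22.2, 37.2 and 33.0 CPM in NONO deltaER and 42.3, 42.4 and 62.1 CPM in NONO Leydig cells, lower without overlap. Most tested members were below 0 in the class named Unknown, against 52.3% of all genes. The difference in the family's share of UMI in that class turned sign between the library sets, at -0.44 and 0.76 percentage points.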

How the data were processed

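Testis cell suspensions were sequenced with the 10x Genomics 3′ v2 chemistry, per the labels' protocols, and counted with Cell Ranger 2.1.1 on mm10, per the submitters' processing notes. The matrix deposited by the authors holds raw UMI counts per gene and cell, without normalization. The deposited cell table gives library, group, class and a mitochondrial percent for each cell. That percent was used to describe libraries. The sources used here do not state the authors' cell filters, and the lowest total of a cell was 500 UMI.

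UMI were summed per library and class, since cells are not replicates. NONO deltaER was set against NONO with edgeR 4.0.16 in R 4.3.3 (TMM factors, filterByExpr, robust quasi-likelihood test, 3 libraries each, Benjamini-Hochberg adjustment over all genes of a class, threshold 0.05). DESeq2 1.42.0 was an alternative, and limma 3.58.1 tested differences of response between classes of the same libraries. The scripts were tested on simulated data. In simulated preleptotene counts the edgeR test recovered 29.9% of genes changed 1.5-fold and 74.6% of those changed 2-fold, with 5 false calls. In simulated undifferentiated spermatogonia it recovered 13.4% of genes changed 1.5-fold. A gene that missed the threshold is thus not shown to be unchanged. Doublets were not removed, and an alternative left out the 5% of cells with the most UMI per library and class. The floor for courses was a mean of 10 CPM over the classes, with a pseudocount of 1 CPM. Gene positions came from GENCODE M21 and transcript starts from RefSeq (GRCm38.p6). The 73 members matched 1 GENCODE gene each, and 53 had a start. Starts on chromosome 18 are not shown.

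The members and lists were chosen with earlier results of these data known. Genes were named by a rule: those past the threshold, the lowest p of each class, the 8 lowest in preleptotene spermatocytes without overlap, the 6 least and 3 most alike, X-linked members, members by role, and listed paralogues and factors. Rpl14, Rpl10a, Rpl4, Rpl21, Rpl26, Rps20, Rps23, Rps24 and Rps3a1 were chosen after their values were seen, as were the 10 starts shown. Single results of some members named by this rule are not reported here, and the counts include these members.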

Additional observations from a re-analysis of the deposited data

How the results depend on the processing

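No paired analysis was possible because the cell table's library names carry no replicate number. The differences in share between the genotypes changed sign under at least 1 alternative in 12 of 17 classes, none of them preleptotene spermatocytes, Sertoli cells or macrophages. In undifferentiated spermatogonia the difference of -0.05 percentage points was 0.07 without TA and 0.03 without TF. The likeness of Rpl29 was 0.09 by Spearman correlation, and over germ cell classes that of Rps12 was -0.07 and that of Rplp1 -0.02. No log2 fold change of a named gene changed sign under the alternatives run. The count of ribosomal protein genes past the threshold was 0 under every alternative except 1 without the 5% of cells with the most UMI. Classes whose share did not overlap between the genotypes numbered 2, against 1 on cells with at least 1000 UMI and 2 to 4 with each library left out in turn, with 4 without TA and 4 without TC, and preleptotene spermatocytes were lower without overlap in each of these. Their difference in share was -0.15 percentage points without the 5 members with the most UMI and -0.25 to -0.17 with each library left out, and 44 to 54 members were then below 0 with medians of -0.28 to -0.17. By the median over cells, the log2 ratio of the shares in elongated spermatids and undifferentiated spermatogonia was -4.52 in place of -3.91. Steps 7-8 over steps 6-7 gave -0.23 in place of -0.59 without the 5 members with the most UMI. Members with a likeness of at least 0.9 numbered 12 by Spearman correlation, against 28, and 25 to 29 with each library left out. Apart from the construction of each alternative, the cause of these shifts was not tested. Depth limits elongated spermatids, where 21 members were tested at 4.94 member UMI per cell, and macrophages, with 23 to 84 cells per library.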

Other observations

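Other genes of the translation machinery differed among themselves between steps 6-7 and steps 7-8. Of the 19 listed translation factors whose mRNAs carry a TOP tract, 10 were lower in steps 7-8 in 6 of 6 libraries and 4 were higher, beside 47.7% and 9.66% of all genes, so the share that was lower was near that of all genes. Eef1a1, which brings aminoacyl-tRNA to the ribosome, averaged 2513 CPM in steps 7-8 and 1433 CPM in steps 6-7. Eef2, which moves the ribosome along the mRNA, averaged 277 CPM in steps 7-8 and 1019 CPM in steps 6-7. Btf3 and Naca, which form the nascent chain complex at the exit tunnel, averaged 2.54 and 235 CPM in steps 7-8 and 173 and 1407 CPM in steps 6-7. Fau, which encodes a small subunit protein fused to a ubiquitin-like domain, averaged 127 CPM in steps 7-8 and 88.5 CPM in steps 6-7. Of 64 mitochondrial ribosome genes past the same floor, 40 were lower in 6 of 6 libraries and 5 were higher, and of 30 ribosome biogenesis genes 12 were lower and 1 was higher. The shares that were higher in these 2 lists lay below that of all genes. Larp1, which binds TOP mRNAs, averaged 241 CPM in steps 7-8 and 346 CPM in steps 6-7. These genes were chosen after their values were seen, and differences between classes were not tested.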
